A study of Mus musculus with 15 samples.

Results

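The miR-200 and miR-141 family comprises 5 mature microRNAs (miRNAs) in mouse: mmu-miR-200a-3p, mmu-miR-200b-3p, mmu-miR-200c-3p, mmu-miR-141-3p and mmu-miR-429-3p, written without the species prefix from here on. They were followed in platelet-free plasma, as the rows of the deposited miRNA table that carry one of these 5 names. All 5 were found among the 1205 entries of the table, and all 5 passed the filter on low counts together with 421 other miRNAs. CLP plasma (9 libraries) and sham plasma (6 libraries) came from male wild-type C57BL/6J mice, 24 h after surgery. CLP is cecal ligation and puncture, which lets gut bacteria leak into the abdomen and models polymicrobial sepsis, and the sham operation was its control. Nothing in the labels ties each library to an animal of its own, and the p-values reflect only how far these libraries spread, which may be technical. Plasma holds RNA released elsewhere, so its epithelial origin was not measured, and a change in the number of source cells, in RNA per cell or in release cannot be told apart.

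The family is known as an epithelial marker: it is transcribed in epithelia such as those of gut, lung, kidney and pancreas, and is scarce in blood cells, endothelium and muscle. Its members pair with sites in the mRNAs of Zeb1 and Zeb2, repressors of the epithelial adhesion gene Cdh1 (E-cadherin), and Zeb1 and Zeb2 in turn repress both miRNA loci. Target choice is set mainly by the seed, bases 2 to 8 of the mature miRNA, and the family holds 2 seeds that differ at a single base.

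The 5 mature sequences, from RefSeq (GRCm38.p6, the assembly of mm10), are shown because the results below are set out by seed and by gene cluster. Capitals mark the seed.
miR-200a-3p: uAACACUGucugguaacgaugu
miR-141-3p: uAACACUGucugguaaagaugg
miR-200b-3p: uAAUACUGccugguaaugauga
miR-200c-3p: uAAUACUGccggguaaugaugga
miR-429-3p: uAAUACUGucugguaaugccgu
Of 1679 mature miRNA sequences in the RefSeq table, 2 carried the first seed and 3 the second, all of them in this family. Counted from 1 at the 5′ end of miR-200a-3p, miR-141-3p differs from it by C17A and U22G, both outside the seed. miR-200b-3p differs from miR-200a-3p by C4U in the seed and by U9C, C17U and U22A outside it. miR-200c-3p differs from miR-200b-3p by U11G and A22G over the 22 bases they share, and is 23 bases long where the other 4 are 22. GC content was 40.9% for miR-200a-3p, miR-141-3p and miR-429-3p, 36.4% for miR-200b-3p and 43.5% for miR-200c-3p.

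The genes lie in 2 clusters that cut across the seeds. The hairpins of Mir200b (chr4:156055681-156055750), Mir200a (chr4:156054896-156054985) and Mir429 (chr4:156053905-156053987) lie within 1846 bases on the minus strand of chromosome 4. In GENCODE M21 all 3 fall in an intron of the protein-coding gene Ttll10, on its strand, and inside the noncoding gene Gm13648, with the Mir429 hairpin touching an exon of Gm13648. The hairpins of Mir200c (chr6:124718322-124718390) and Mir141 (chr6:124717914-124717985) lie within 477 bases on the minus strand of chromosome 6. Both fall in an intron of the noncoding gene Gm15884, and the Mir141 hairpin also overlaps an exon of Gm29008.

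Library totals ran from 6181056 to 13576482 counts in CLP and from 5274676 to 10702028 in sham. Levels are given as CPM, counts divided by the library total and put on a common scale. Library totals were adjusted by TMM, a normalization that assumes most miRNAs do not change. CPM gives a share of the counts of a library made from 100 ng of RNA, so amounts per volume of plasma were not measured. Rises and falls of levels below are changes on this relative scale. In red cells, platelets and myeloid cells, hepatocytes, striated muscle, lymphocytes, endothelium, intestine and liver, islets, pancreatic acini and squamous epithelium, each marker listed was present in the table and none was at 0 in every library. Adapter ligation favours some end sequences, so the order of levels between miRNAs describes these libraries and not molecule numbers. Estimated counts need not be whole where reads match several miRNAs. Values that were not whole numbers occurred for miR-200a-3p and miR-141-3p in 3 libraries each, for miR-200b-3p and miR-200c-3p in 1 each, and for miR-429-3p in 0. For miR-200a-3p and miR-141-3p these were the same libraries, CLP 1, sham 3 and sham 6. For miR-200b-3p and miR-200c-3p the library was CLP 6 in both cases. How many reads the members shared was not measured.

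miR-200a-3p was the most abundant member by CPM, and its share of the counts was higher in CLP than in sham plasma. Its level was 964 CPM in the lowest, 1550 in the median and 2964 in the highest CLP library, against 653, 839 and 957 CPM in sham. All 9 CLP libraries lay above all 6 sham libraries, although CLP 6 (964 CPM) and CLP 3 (991 CPM) stood just above the highest sham library. Such separation was not particular to the family: it also held for miR-10a-5p and miR-361-5p, among others. Its share over all tested miRNAs was not counted. The mean of miR-200a-3p was 1674 ± 668 CPM in CLP and 813 ± 124 CPM in sham (SD, n = 9 and 6). By mean level among the 1205 entries, miR-200a-3p ranked 46 in CLP and 58 in sham. The log2 fold change was 1.04 ± 0.25 (SE; edgeR quasi-likelihood test, adjusted p = 0.00206).

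miR-141-3p, which has the same seed but lies in the other cluster, also rose. It was at 91.6, 154 and 264 CPM in the lowest, median and highest CLP libraries, against 63.7, 95.6 and 120 CPM in sham. In 7 of 9 CLP libraries it exceeded every sham library, and CLP 3 and CLP 6 were again the low ones. The mean was 166 ± 54.0 CPM in CLP and 95.8 ± 20.3 CPM in sham (SD, n = 9 and 6). The log2 fold change was 0.79 ± 0.23 (SE; edgeR adjusted p = 0.00732), and it did not pass once a trend with GC content was removed from each library (0.45, edgeR adjusted p = 0.103).

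The 3 members with the other seed did not pass. miR-200b-3p, the second most abundant member, was at 142, 251 and 419 CPM in the lowest, median and highest CLP libraries, against 194, 241 and 307 CPM in sham. The CLP range enclosed the sham range, with 3 CLP libraries above and 3 below all of sham. Its log2 fold change was 0.16 ± 0.24 (SE; edgeR adjusted p = 0.615), and the sign was negative with library size scaling (-0.059) and with the GC trend removed (-0.29).

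miR-429-3p, the remaining product of the chromosome 4 cluster, was at 26.1, 38.1 and 77.4 CPM in the lowest, median and highest CLP libraries, against 18.5, 31.2 and 42.0 CPM in sham. CLP 2, CLP 5, CLP 7 and CLP 8 exceeded every sham library and the other 5 CLP libraries lay within the sham range. The log2 fold change was 0.58 ± 0.29 (SE; edgeR adjusted p = 0.106; 0.36 and 0.311 without CLP 7).

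miR-200c-3p, the partner of miR-141-3p on chromosome 6, was the least abundant member. It was at 14.1, 24.2 and 39.6 CPM in the lowest, median and highest CLP libraries, against 15.8, 21.0 and 31.0 CPM in sham, so the CLP range enclosed the sham range. Its counts ran from 107 to 449 per library. The log2 fold change was 0.20 ± 0.24 (SE; edgeR adjusted p = 0.525), and it was -0.025 with library size scaling and -0.075 with the GC trend removed.

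**Figure D1:**
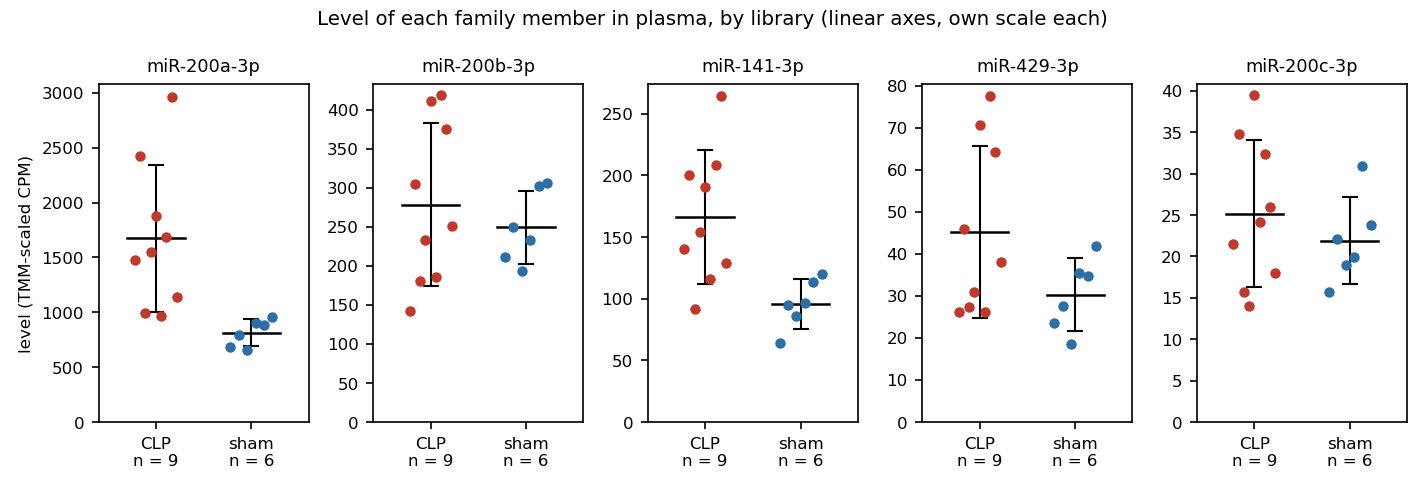
Level of each family member in TMM-scaled CPM (linear axis from 0, a separate scale per panel) in 9 CLP and 6 sham libraries; points are libraries, bars the mean and SD. All CLP points of miR-200a-3p lie above the sham points, while those of miR-200b-3p and miR-200c-3p spread to both sides of sham.

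In all, 2 of 5 members rose and 0 fell, where 47.2% of the 426 tested miRNAs were called in either direction, 25.4% of them higher and 21.8% lower. All 5 log2 fold changes were above 0, also with DESeq2, so no member was lower at any p in either fit. As given above, those of miR-200b-3p and miR-200c-3p were below 0 with library size scaling and with the GC trend removed. The share called is close to that background, and the median log2 fold change was 0.58 over the 5 members and 0.11 over all 426. The order of mean levels was miR-200a-3p, miR-200b-3p, miR-141-3p, miR-429-3p, miR-200c-3p in both groups. miR-200b-3p held more counts than miR-141-3p in all 15 libraries, but the pair came closer in CLP, where miR-141-3p reached 0.987 of miR-200b-3p in CLP 1 and its highest share in sham was 0.441. The lowest neighbours, miR-429-3p and miR-200c-3p, overlapped in their ranges of CPM in both groups. The members varied more among CLP libraries, with a coefficient of variation of 32.5% for miR-141-3p to 45.2% for miR-429-3p, than among sham libraries, with 15.3% for miR-200a-3p to 28.5% for miR-429-3p.

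The CLP libraries that were high differed by member. CLP 8 was highest for miR-200a-3p (2964 CPM) and miR-141-3p (264 CPM), CLP 7 for miR-200b-3p (419 CPM) and miR-429-3p (77.4 CPM), and CLP 5 for miR-200c-3p (39.6 CPM). CLP 1, which was lowest for miR-200b-3p, held 1476 CPM of miR-200a-3p, above every sham library.

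Ratios of 2 miRNAs within a library need no scaling for depth and show whether members of a cluster kept step. The ratio of miR-200a-3p to miR-200b-3p, whose hairpins lie side by side on chromosome 4, differed between the groups. It was 4.01, 5.50 and 10.4 in the lowest, median and highest CLP libraries, against 2.93, 3.20 and 3.88 in sham. All 9 CLP libraries lay above all 6 sham libraries, with CLP 7 lowest and CLP 1 highest. The mean log2 ratio was 2.59 ± 0.46 in CLP and 1.71 ± 0.14 in sham (SD, n = 9 and 6), a difference of 0.88 (exact two-sided permutation p = 0.00120, adjusted over all 90525 pairs of tested miRNAs 0.00448). Counting error alone would give this log2 ratio an SD of 0.036 in CLP and 0.039 in sham.

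Of such pairs, 50.8% differed among all pairs of tested miRNAs, and 55.9% among the 340 pairs from different hairpins within 10 kb on 1 strand. The median size of the log2 difference was 1.31 over all pairs and 0.99 over the neighbouring pairs. The shift between miR-200a-3p and miR-200b-3p, at 0.88, was below the median of neighbouring pairs.

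On chromosome 6, the ratio of miR-141-3p to miR-200c-3p also differed. It was 4.80, 6.45 and 10.9 in the lowest, median and highest CLP libraries, against 3.67, 4.40 and 5.04 in sham. In 7 of 9 CLP libraries it exceeded every sham library, and CLP 5 and CLP 6 lay within the sham range. The mean log2 ratio was 2.73 ± 0.42 in CLP and 2.13 ± 0.17 in sham (SD, n = 9 and 6), a difference of 0.61 (exact permutation p = 0.00420, adjusted 0.0117). Here counting error alone would give an SD of 0.12 in CLP and 0.13 in sham, close to the spread among sham libraries.

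miR-429-3p completes the chromosome 4 cluster. The log2 ratio of miR-200b-3p to miR-429-3p, which have the same seed, was 2.65 ± 0.17 in CLP and 3.07 ± 0.24 in sham (SD, n = 9 and 6), lower in CLP by a difference of -0.42 (exact permutation p = 0.00280, adjusted 0.00847). Of the CLP libraries 4 lay below all of sham. The log2 ratio of miR-200a-3p to miR-429-3p was 5.24 ± 0.48 in CLP and 4.78 ± 0.22 in sham, a difference of 0.46 that did not pass (exact permutation p = 0.0496, adjusted 0.0867; 0.56 and adjusted 0.0289 without CLP 7).

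Between clusters, members with the same seed did not pass. The log2 ratio of miR-200a-3p to miR-141-3p was 3.30 ± 0.20 in CLP and 3.10 ± 0.19 in sham (SD, n = 9 and 6), a difference of 0.21 (exact permutation p = 0.0713, adjusted 0.117; 0.27 and adjusted 0.0460 without sham 1). That of miR-200b-3p to miR-200c-3p was 3.45 ± 0.45 in CLP and 3.52 ± 0.18 in sham, a difference of -0.065 (exact permutation p = 0.742, adjusted 0.798). For miR-429-3p to miR-200c-3p the difference was 0.35 (exact permutation p = 0.125, adjusted 0.187).

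With different seeds and different clusters, miR-200a-3p rose against miR-200c-3p by 0.81 (exact permutation p = 0.00360, adjusted 0.0103). miR-141-3p rose against miR-200b-3p by 0.67 (exact permutation p = 0.000799, adjusted 0.00334), with all 9 CLP libraries above all 6 sham libraries. The difference of miR-141-3p against miR-429-3p was 0.25 (exact permutation p = 0.179, adjusted 0.252). Over the 10 pairs of members, set beside the 50.8% of all pairs that passed, 4 of 6 pairs with different seeds and 1 of 4 with the same seed passed. Split by gene cluster, 3 of 4 pairs within a cluster and 2 of 6 between clusters passed. The 10 ratios come from 5 miRNAs and are not independent.

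**Figure D2:**
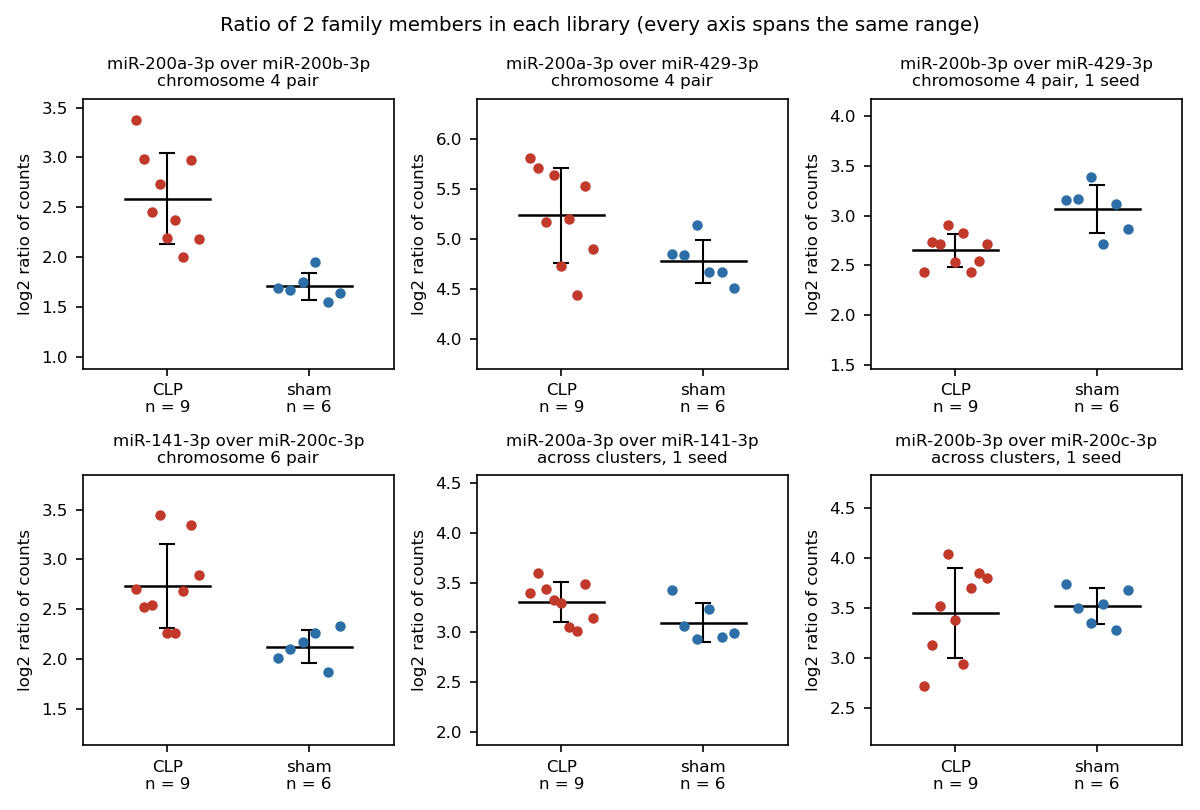
Log2 ratio of counts of 2 family members in each of 9 CLP and 6 sham libraries, with the mean and SD; every panel spans the same range of log2 units. The ratios of miR-200a-3p to miR-200b-3p and of miR-141-3p to miR-200c-3p are higher in CLP, and that of miR-200b-3p to miR-429-3p is lower. The ratio of miR-200a-3p to miR-429-3p and the 2 ratios across clusters within a seed did not pass. Only for miR-200a-3p to miR-200b-3p do the groups not overlap.

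Summed over the 5 members, the family made up 2189 ± 810 CPM in CLP and 1210 ± 195 CPM in sham (SD, n = 9 and 6). The seed of miR-200a-3p and miR-141-3p took 83.7% ± 3.92 of these counts in CLP and 75.1% ± 1.57 in sham, with ranges of 78.1% to 89.5% and 73.1% to 77.6% that did not overlap. miR-200b-3p alone took 7.88% to 17.3% in CLP and 18.1% to 22.1% in sham, again without overlap. By gene cluster the make-up was nearly the same: the 3 members on chromosome 4 took 91.1% ± 0.959 in CLP and 90.3% ± 1.05 in sham. These shares restate the ratios above and were not tested.

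**Figure D3:**
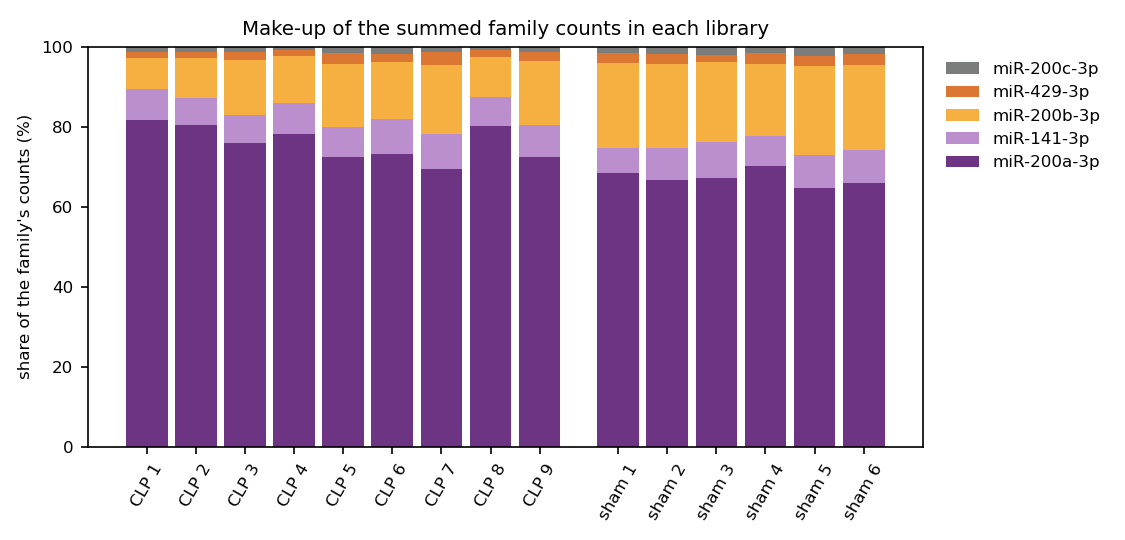
Share of the summed family counts (percent, stacked to 100) taken by each member in 9 CLP libraries and 6 sham libraries. The purple segments, miR-200a-3p and miR-141-3p, together hold 78.1% to 89.5% in CLP and 73.1% to 77.6% in sham.

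Each 5p arm counted here was rarer than the 3p arm of its own hairpin. In sham, miR-200b-5p (mean 34.6 CPM) still lay above miR-429-3p (30.3 CPM) and miR-200c-3p (21.9 CPM). In CLP it lay below both (21.6 against 45.2 and 25.1 CPM). The hairpins of Mir200b and Mir200a are shown because both of their arms could be tested. Capitals mark the 5p arm and then the 3p arm (RefSeq, GRCm38.p6, minus strand of chromosome 4).
Mir200b: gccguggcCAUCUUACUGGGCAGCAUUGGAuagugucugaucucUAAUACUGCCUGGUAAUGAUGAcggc
Mir200a: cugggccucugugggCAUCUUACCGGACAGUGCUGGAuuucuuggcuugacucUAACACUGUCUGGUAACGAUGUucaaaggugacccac
miR-200b-5p was at 2.24, 12.5 and 45.2 CPM in the lowest, median and highest CLP libraries, against 22.9, 33.7 and 46.4 CPM in sham. CLP 1, CLP 2, CLP 4, CLP 6 and CLP 9 lay below every sham library and the other 4 lay within the sham range. The log2 fold change was -0.67 ± 0.44 (SE; edgeR adjusted p = 0.220), and the coefficient of variation among CLP libraries was 70.8%, more than for any 3p member.

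The ratio of the arms of the Mir200b hairpin differed between the groups. miR-200b-3p over miR-200b-5p was 6.92, 15.6 and 61.1 in the lowest, median and highest CLP libraries, against 6.18, 6.96 and 10.9 in sham. In 6 of 9 CLP libraries it exceeded every sham library, and CLP 1 was farthest out. The mean log2 ratio was 4.02 ± 0.96 in CLP and 2.87 ± 0.29 in sham (SD, n = 9 and 6), a difference of 1.15 (exact permutation p = 0.0118, adjusted 0.0267). Among the 94 pairs of tested arms that share a hairpin, 48.9% of arm ratios differed, with a median size of 0.94. The call was lost without sham 4 (adjusted 0.0509) or sham 5 (adjusted 0.0521).

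miR-200a-5p was at 4.50, 6.04 and 11.8 CPM in the lowest, median and highest CLP libraries, against 3.33, 4.64 and 5.88 CPM in sham. It exceeded all of sham in 5 CLP libraries, with a log2 fold change of 0.51 ± 0.26 (SE; edgeR adjusted p = 0.113; 0.64 and 0.0487 with the GC trend removed; 0.28 and 0.347 without CLP 7). The log2 ratio of miR-200a-3p to miR-200a-5p was 7.94 ± 0.53 in CLP and 7.45 ± 0.33 in sham (SD, n = 9 and 6), a difference of 0.49 that did not pass (exact permutation p = 0.0663, adjusted 0.110; 0.59 and adjusted 0.0466 without CLP 7).

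The 5p arms of the chromosome 6 hairpins were too rare to be tested. miR-141-5p held 16 counts in all, spread over 6 of 9 CLP libraries with at most 5 in one, and 0 of 41851050 counts in sham. In the pooled, unscaled counts that is 0.195 CPM in CLP (95% exact Poisson interval 0.112 to 0.317, counting error only), against an upper limit of 0.0717 CPM in sham, the value of 3 counts over the group. No test between libraries was made. miR-200c-5p held 1 count, in CLP 1, and 0 in sham. miR-429-5p was not analysed here.

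**Figure D4:**
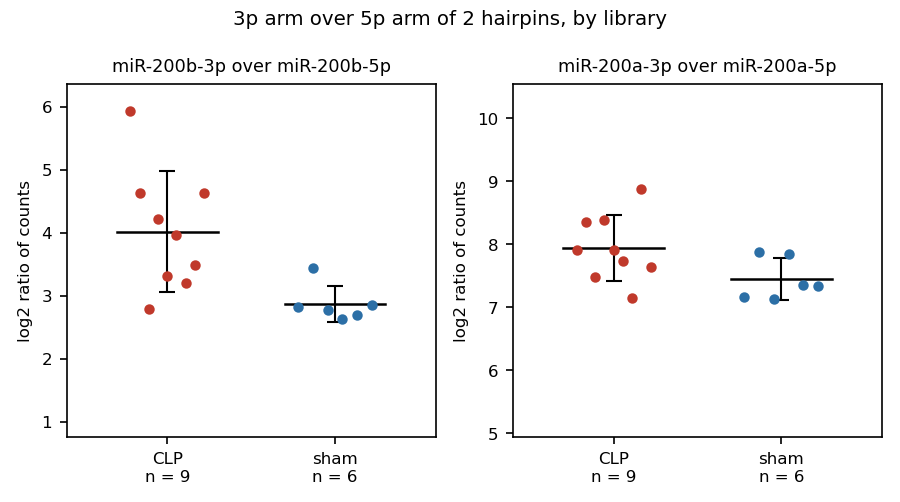
Log2 ratio of 3p to 5p counts for the Mir200b and Mir200a hairpins in 9 CLP and 6 sham libraries, with the mean and SD. For miR-200b the CLP libraries spread upward from the sham range, up to 5.93 in CLP 1, while for miR-200a the groups overlap.

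Other epithelial miRNAs were followed beside the family. Of 14 listed, 12 were tested: 1 rose, 7 fell and 4 did not pass, with a median log2 fold change of -0.83, where 25.4% of all tested miRNAs rose and 21.8% fell. The list was drawn up with earlier results of these data known. miR-205-5p, of squamous epithelium, was at 64.0 ± 26.0 CPM in CLP and 731 ± 346 CPM in sham (SD, n = 9 and 6; log2 fold change -3.51 ± 0.33, SE; edgeR adjusted p = 2.39e-07). The sensory-epithelium cluster of miR-182-5p, miR-183-5p and miR-96-5p fell by 1.88, 1.45 and 0.97 on the log2 scale (edgeR adjusted p from 7.19e-06 to 0.00236).

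miR-184-3p, known from the cornea and lens, was at 23.0 ± 18.8 CPM in CLP and 146 ± 53.5 CPM in sham, and fell by 2.66. miR-215-5p, of gut and kidney, was at 1225 ± 631 CPM in CLP and 5354 ± 628 CPM in sham, and fell by 2.13 (edgeR adjusted p = 0.000318 and 1.37e-05). The call of miR-203-3p, of skin (-0.69 ± 0.26, edgeR adjusted p = 0.0368), was lost without CLP 2, 3, 4, 6 or 8 or without sham 2 or 5, with adjusted p up to 0.118. miR-194-5p, of gut and liver, was the one that rose (0.84 ± 0.33, edgeR adjusted p = 0.0423). Leaving out CLP 1, 2, 5, 7, 8 or 9, or sham 1, 2, 3, 4 or 6, ended that call, at adjusted p-values of at most 0.115, and the log2 fold change was 0.49 without CLP 1. So did 9 of the 12 alternatives other than leaving out 1 library, with log2 fold changes of 0.51 to 0.85 and library size scaling at 0.60 (edgeR adjusted p = 0.131). The islet and airway miRNA miR-375-3p (0.67 ± 0.36, edgeR adjusted p = 0.133), miR-192-5p of gut and liver (0.55 ± 0.29, 0.122), miR-31-5p (0.41 ± 0.53, 0.541) and miR-34c-5p of ciliated cells (-0.69 ± 0.39, 0.153) did not pass. miR-34c-5p did pass without CLP 9 (-1.01, edgeR adjusted p = 0.0186) and with replicates 1 to 6 alone (-0.99, 0.0374).

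**Figure D5:**
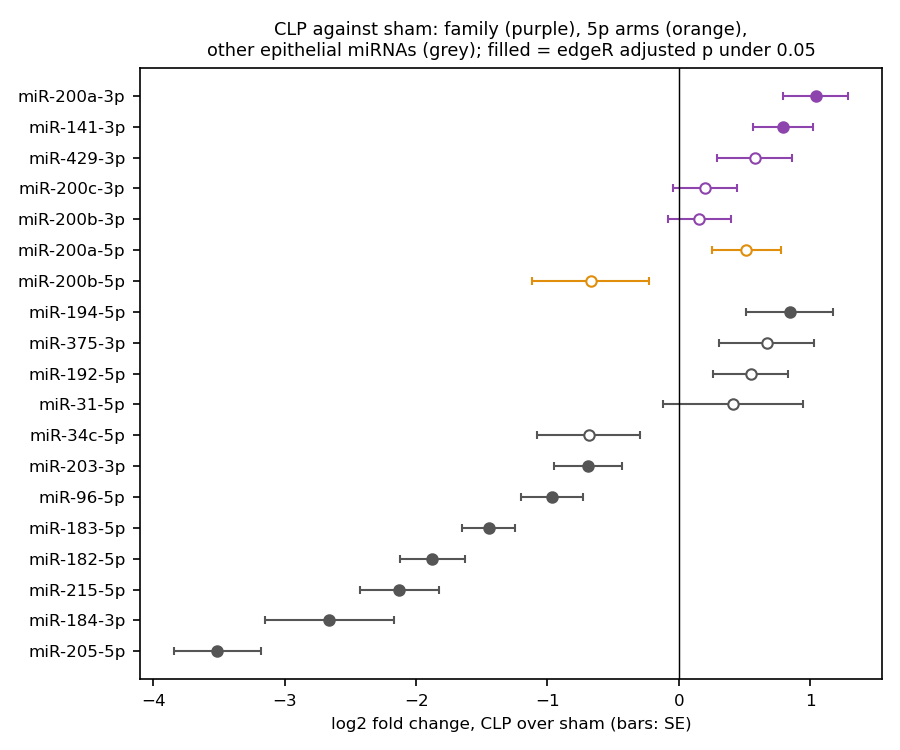
Log2 fold change of CLP over sham with SE for the 5 family members (purple), 2 of their 5p arms (orange) and 12 other epithelial miRNAs (grey); filled points passed the edgeR test at an adjusted p under 0.05. Only miR-200a-3p, miR-141-3p and miR-194-5p are filled on the positive side, and 7 grey points are filled on the negative side.

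Summed levels of markers of other tissues are given here as values without a test, and their part in the family's levels was not tested. The summed level of 3 striated muscle markers had a median of 20957 CPM (range 4975 to 40576) in CLP and 1145 CPM (409 to 6686) in sham. Of these 3 markers, 2 passed as higher, and miR-133a-3p (log2 fold change 0.54) did not pass. The sum of 3 red cell markers had a median of 123217 CPM (81409 to 377435) in CLP and 251261 CPM (157250 to 454408) in sham. With the log2 ratio of miR-451a to miR-23a-3p, a haemolysis index, as a covariate, the log2 fold changes of miR-200a-3p and miR-141-3p were 0.997 and 0.793 (edgeR adjusted p = 0.00927 and 0.0246). In that fit 160 of 426 miRNAs were called, against 201 without the covariate. Because miR-451a itself differed between the groups, the index is tied to group, and the part of haemolysis was not tested. Of tissues that hold epithelium, 2 squamous markers summed to a median of 184 CPM (116 to 254) in CLP and 874 CPM (509 to 1414) in sham. The 2 islet markers summed to 999 CPM (480 to 2179) in CLP and 670 CPM (525 to 890) in sham, and 3 acinar markers to 112 CPM (13.1 to 414) in CLP and 20.9 CPM (11.1 to 25.2) in sham. That sum was carried by miR-217-5p, which rose (log2 fold change 3.56 ± 0.83, SE; edgeR adjusted p = 0.00199). Neither miR-216b-5p (-0.42) nor miR-216a-5p (-0.35) passed. Of the islet markers, miR-375-3p held most of the sum and did not pass. The other, miR-7a-5p, rose (log2 fold change 1.53 ± 0.27 SE, edgeR adjusted p = 0.000154). The 3 markers of intestine and liver had a median of 34496 CPM (12917 to 68278) in CLP and 28032 CPM (25235 to 37312) in sham. That sum was mostly miR-192-5p, which did not pass (35357 ± 16342 CPM in CLP and 24201 ± 4653 CPM in sham, SD, n = 9 and 6); as given above, miR-194-5p rose and miR-215-5p fell. The 2 hepatocyte markers stood at 7128 CPM (1875 to 79234) in CLP and 4879 CPM (2959 to 14613) in sham. Platelet and myeloid markers summed to 310 CPM (266 to 572) in CLP and 301 CPM (245 to 338) in sham. Lymphocyte markers summed to 891 CPM (543 to 1523) in CLP and 1691 CPM (1152 to 1819) in sham, and endothelial markers to 2566 CPM (1791 to 4663) in CLP and 4201 CPM (2852 to 4835) in sham. Both lymphocyte markers passed as lower, and no hepatocyte, platelet and myeloid or endothelial marker passed.

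Likeness of pattern was measured as the root mean square difference between log2 CPM profiles over the 15 libraries, each centred on its own mean. It is a description: it includes the group difference, and rare miRNAs carry more counting error. miR-200a-3p lay nearer to miR-141-3p (0.21) than to any of 244 non-members with a mean of at least 10 CPM. Its nearest non-members were miR-10a-5p (0.42), miR-361-5p (0.44) and miR-24-3p (0.48), and its distance to its cluster neighbour miR-200b-3p was 0.55. miR-141-3p was likewise nearest to miR-200a-3p, followed outside the family by miR-409-3p, miR-361-5p and miR-27b-3p (each 0.40).

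miR-200b-3p was nearest to miR-429-3p (0.27), then to miR-224-5p (0.30), let-7b-3p (0.33) and, at 0.34, miR-200c-3p. The next non-member was miR-146a-5p (0.37). For miR-429-3p, miR-200b-3p (0.27) and miR-141-3p (0.34) came before miR-224-5p (0.40), let-7b-3p (0.44) and miR-132-3p (0.47). miR-200c-3p was the exception, nearest to the non-member miR-224-5p (0.24) and next to miR-200b-3p (0.34), let-7b-3p (0.39) and miR-181b-5p (0.41). Its distance to its cluster partner miR-141-3p was 0.44.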

How the data were processed

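Small RNA was sequenced from 100 µl of platelet-free plasma per sample, with 100 ng of RNA put into a ligation-based library kit, per the labels' protocols. The authors deposited expected counts per mature miRNA for 15 libraries, not scaled for depth. exceRpt, a small RNA pipeline, is named by the deposited table, with mm10 as build per the submitters' processing notes. Not given in the sources used here: aligner, mismatches, trimming and the miRNA release. Of all entries, 4.56% were not whole numbers, and counts were rounded before testing.

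The 426 miRNAs kept by filterByExpr were tested with edgeR 4.0.16 (R 4.3.3): TMM, robust quasi-likelihood F test, no covariate, Benjamini-Hochberg adjustment over all 426, threshold 0.05. The biological coefficient of variation was 0.463. SE was the size of the log2 fold change over the square root of F. Ratios used counts plus 0.5 and an exact two-sided permutation test of the absolute difference of group means over 5005 splits, adjusted over all 90525 pairs of tested miRNAs in place of the 10 member pairs set out at first. Both tests were checked on simulated data. Members and lists were chosen with earlier results of these data known. The miRNAs named were the 5 members, their 5p arms, the other epithelial list and the 3 nearest non-members of each member. Some markers of other tissues and the miRNAs of the haemolysis index were named too. The most alike libraries of a group still differed by a chi-square of 373 (CLP) and 235 (sham) per degree of freedom, so none was a copy. Mature sequences gave GC content for 373 of the 426 tested miRNAs (87.6%). Alternatives were DESeq2 1.42.0, limma 3.58.1 (voom), other scalings and filters, covariates and leaving out libraries.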

Additional observations from a re-analysis of the deposited data

Results flagged for a closer look

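In 2 of 38 groups of values, 1 library stood farther from its neighbours than Dixon's 95% limit allows, and chance flags about 1 group in 20. miR-200a-5p was at 11.8 CPM in CLP 7, where the next highest CLP library held 7.75 CPM. The log2 ratio of miR-200b-3p to miR-200b-5p was 3.44 in sham 2, above the other sham libraries, which ended at 2.86. In a row too rare for the test of CLP against sham, miR-141-5p held 16 counts in CLP libraries and 0 in sham.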

How the results depend on the processing

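miR-200a-3p rose in all 27 alternatives, with log2 fold changes from 0.83 (without CLP 8) to 1.09 (without CLP 9) on leaving out 1 library and 0.69 (edgeR adjusted p = 0.0265) with the GC trend removed. miR-141-3p passed on leaving out any 1 library (0.62 to 0.86, edgeR adjusted p up to 0.0448) but not with the GC trend removed (0.45) or under a replicate block fit of replicates 1 to 6 (0.55, edgeR adjusted p = 0.0846), so each of these left 1 member called higher. The cause was not tested. miR-200b-3p turned negative with library size scaling (-0.059), replicates 1 to 6 alone (-0.092), the replicate block (-0.17) and the GC trend removed (-0.29), and lay between -0.016 and 0.22 on leaving out 1 library. miR-200c-3p turned negative with library size scaling (-0.025) and the GC trend removed (-0.075), and lay between 0.019 and 0.32 on leaving out 1 library. miR-429-3p lay between 0.36 and 0.62 on leaving out 1 library and passed in no alternative. None of the 5 passed as lower in any alternative. Library size scaling shifted the median log2 fold change of all tested miRNAs by -0.23 and split the calls into 90 higher and 126 lower, against 108 and 93. With no filter 307 of 1182 miRNAs were called, 167 of them lower. The stricter filter called 71 of 254 tested miRNAs higher, and the block called 71 of 402 higher. On leaving out 1 library, 184 to 213 were called, 95 to 104 higher and 82 to 110 lower. Same-numbered CLP and sham libraries did not deviate together (correlations from -0.15 to -0.031, none highest with its own number), so the numbers were not taken as pairs; under the block miR-200b-5p was at -1.37 (edgeR adjusted p = 0.0312) and 152 of 402 miRNAs were called.

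Ratios, on leaving out 1 library, ranged from 0.78 to 0.95 for miR-200a-3p over miR-200b-3p, 0.52 to 0.67 for miR-141-3p over miR-200c-3p, -0.49 to -0.35 for miR-200b-3p over miR-429-3p, 0.71 to 0.90 for miR-200a-3p over miR-200c-3p and 0.58 to 0.72 for miR-141-3p over miR-200b-3p, and each of these passed every time. The others ranged from 0.39 to 0.56 (miR-200a-3p over miR-429-3p), 0.17 to 0.27 (miR-200a-3p over miR-141-3p), -0.14 to 0.027 (miR-200b-3p over miR-200c-3p), 0.26 to 0.44 (miR-429-3p over miR-200c-3p) and 0.19 to 0.36 (miR-141-3p over miR-429-3p). The arm ratios ranged from 0.91 to 1.30 for miR-200b and 0.37 to 0.59 for miR-200a. A pseudocount of 5 changed no call among the ratios. Among the 5 members miR-200c-3p had the fewest counts, 107 in its lowest library, and the tested 5p arms went down to 13 (miR-200b-5p) and 23 (miR-200a-5p).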
